A study of Mus musculus with 8 samples.

Results

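Forkhead transcription factors share a winged-helix DNA-binding domain and are grouped by letter into the FoxA to FoxS subfamilies. Some are pioneer factors that open chromatin at endodermal enhancers, many are regulators of mesenchyme, brain or organ primordia that polycomb proteins keep silent in embryonic stem (ES) cells, and others, such as the FoxO factors, respond to insulin signalling in most tissues. Foxd3 is known as a factor of the pluripotent state. All-trans retinoic acid (RA), a ligand of nuclear receptors, drives ES cells out of self-renewal, and the study asked how the polycomb protein Cbx8 relates to the genes that change then.

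The forkhead genes were the genes on an Agilent 1-colour mouse expression array whose name consists of Fox, a subfamily letter from a to s, a number and at most 1 further letter. Foxa2 and Foxh1 were left out of the rule, and the brightest probe of a gene, by its mean over the 8 arrays, stood for the gene. This gave 42 genes of 36406 gene and transcript names on the array. The cells were E14Tg2A.4 (E14), a single mouse ES cell line, either untreated or exposed to 1 µM RA for 72 h, with 4 replicates of each condition and 1 array per replicate. No genotype, strain or passage beyond the line's name is given in the labels, and the study's methods call the replicates biological without saying whether they were separate cultures, so p-values measure the spread between these samples. Per the study's methods, RA was given in medium without leukemia inhibitory factor, the cytokine that keeps ES cells undifferentiated. The medium of the untreated cells is not given in the sources used here, and if it held the factor, the effects of RA and of its removal cannot be told apart. All values below are log2 signals minus the 75th percentile of the same array, called the scaled log2 signal, so that 0 is the signal at that percentile.

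Between 56.7% and 62.7% of the spots of an array that are not controls were well above background by the scanner software's flag, and no spot was saturated. A gene whose probe carried this flag on an array is called detected there, and dim otherwise. The label of the untreated cells was borne out by ES cell markers, since all 8 (Pou5f1, Nanog, Sox2, Zfp42, Esrrb, Klf4, Tdgf1 and Dppa5a) were detected on each of the 4 untreated arrays, and all 8 fell after RA. Of the other cell type markers, 7 of 8 primitive endoderm, 4 of 4 parietal endoderm, 5 of 6 fibroblast, 3 of 5 neural crest, 2 of 3 germ cell, 2 of 6 visceral endoderm, 2 of 7 neural and 2 of 6 mesoderm genes rose. Markers of visceral endoderm, neural cells, mesoderm and endothelium also fell, 1 of 6, 1 of 7, 2 of 6 and 2 of 4, respectively. In these bulk samples, fewer cells of a type and less RNA per cell cannot be told apart.

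The sequences that follow show the transcript pieces that some of the probes match, and promoters, whose relation to the results was not tested. The array carried 57 probes for the 42 genes, and a gene can be represented by probes that report different things. Both Foxl2 probes are given first because they overlap in the same stretch of chromosome 9 (mm9, plus strand, chr9:98856846-98856905 and chr9:98856894-98856950) of this intronless gene, with the 12 bases they share in capitals. The Foxp1 probes shown (mm9, minus strand, chr6:98880084-98880143 and chr6:99112925-99112984) lie 232.8 kb apart in the gene. The first of them ends in the stop codon, printed in capitals, and the second has no part marked.
Foxl2 probe A_55_P2041668: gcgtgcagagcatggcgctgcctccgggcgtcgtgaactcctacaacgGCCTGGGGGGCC
Foxl2 probe A_55_P2037732: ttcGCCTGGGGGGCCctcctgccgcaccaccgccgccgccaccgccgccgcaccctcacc
Foxp1 probe A_55_P2088825: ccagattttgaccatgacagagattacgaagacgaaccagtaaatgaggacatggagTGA
Foxp1 probe A_55_P2105452: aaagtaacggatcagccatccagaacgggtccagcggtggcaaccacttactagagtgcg
The brightest Foxl2 probe has a GC content of 81.7%, the highest among the members, whose median was 43.3%, the same as over all genes. On the array, 15 genes, Foxl2 included, had a probe with at least this GC content, and 14 of them (93.3%) were well above background on all 8 arrays, compared with 56% of all genes.

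RefSeq promoters (GRCm38.p6), which run from 250 bases before the transcription start to 50 after it, were given for 27 of the 42 genes. The forkhead binding core GTAAACA, searched on both strands, occurred in the promoter of 1 of the 27 genes, Foxa1, where it begins at position -141 from the transcription start. It is in 3.65% of the 32851 promoters of the table. AGGTCA, the motif bound by RA receptors, was found on either strand in promoters of 5 genes, Foxe3, Foxi2, Foxk2, Foxn3 and Foxp3, and in 16.3% of all promoters. The Foxa1 promoter (chr12:57546062-57546361, minus strand) is printed with GTAAACA in capitals, and those of Foxc1 (chr13:31806396-31806695, plus strand) and Foxr2 (chrX:153118538-153118837, plus strand) with each CG dinucleotide in capitals, because they hold 32 and 3 of them, Foxr2 the fewest among the members with a promoter.
Foxa1 promoter: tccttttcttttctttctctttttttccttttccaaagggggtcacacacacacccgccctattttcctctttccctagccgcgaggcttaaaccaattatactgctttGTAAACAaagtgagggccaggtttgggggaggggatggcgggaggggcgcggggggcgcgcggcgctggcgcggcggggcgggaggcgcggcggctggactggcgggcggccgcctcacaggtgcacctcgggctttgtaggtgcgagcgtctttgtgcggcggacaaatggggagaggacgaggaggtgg
Foxc1 promoter: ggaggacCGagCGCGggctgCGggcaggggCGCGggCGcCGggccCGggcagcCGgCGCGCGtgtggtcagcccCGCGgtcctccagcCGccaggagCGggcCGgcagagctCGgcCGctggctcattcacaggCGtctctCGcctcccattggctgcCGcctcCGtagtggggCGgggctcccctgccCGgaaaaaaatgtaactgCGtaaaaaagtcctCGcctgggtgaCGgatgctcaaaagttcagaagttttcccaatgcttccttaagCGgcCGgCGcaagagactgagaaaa
Foxr2 promoter: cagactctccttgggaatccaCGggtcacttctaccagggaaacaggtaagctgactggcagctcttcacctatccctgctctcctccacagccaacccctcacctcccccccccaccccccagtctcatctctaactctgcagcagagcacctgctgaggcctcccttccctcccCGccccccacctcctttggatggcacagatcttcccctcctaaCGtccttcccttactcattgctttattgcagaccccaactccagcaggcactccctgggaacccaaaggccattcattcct
The first listed promoter of a member held a median of 22 CG dinucleotides, compared with 7 over all promoters. The median was 26 for the 7 genes with a promoter that were higher after RA (range 5 to 33), 22 for the 7 that were lower (3 to 31) and 13 for the 13 that were not called (6 to 59), so that the ranges overlapped.

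After 72 h of RA, 16 of the 42 forkhead genes were higher and 9 were lower than in untreated cells, and 17 passed the limits in neither direction. A gene was called at a change above 1.5-fold with a Benjamini-Hochberg adjusted p under 0.05 in limma, adjusted over all 55681 probes. The same call was made for 13.9% of all genes as higher and for 22.1% as lower, compared with 38.1% and 21.4% of the forkhead genes. All 4 RA arrays lay above all 4 untreated arrays for 17 forkhead genes and below them for 10, against 15.3% and 25.3% of all genes. The median change was 0.37 (log2) for the forkhead genes and -0.28 for all genes. After quantile normalization, under which the median of all genes was -0.0043, 17 forkhead genes were higher and 8 lower, and 15.6% and 16.3% of all genes. The share of calls that were higher was 64% among forkhead genes and 38.6% among all genes, and 68% and 48.9% after quantile normalization. With the authors' processed values, in which dim signals are compressed, 13 forkhead genes were higher and 7 lower, and 12.8% and 13.1% of all genes. The calls of Foxe1, Foxi1, Foxi2, Foxi3, Foxo4 and Foxp2 were lost there, with changes under 1.5-fold, and Foxj3 was called higher. Of the 25 called genes, 15 had a fold there that was over 1.5 times smaller than on the scaled log2 signals. Of these, 9 were detected in both conditions (Foxc2, Foxd2, Foxd3, Foxe1, Foxi3, Foxj1, Foxn4, Foxr1 and Foxr2), with folds 1.64 to 3.72 times smaller, as from 36.6 to 19.4 for Foxd2 and from 43.4 to 22.4 for Foxn4.

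**Figure D1:**
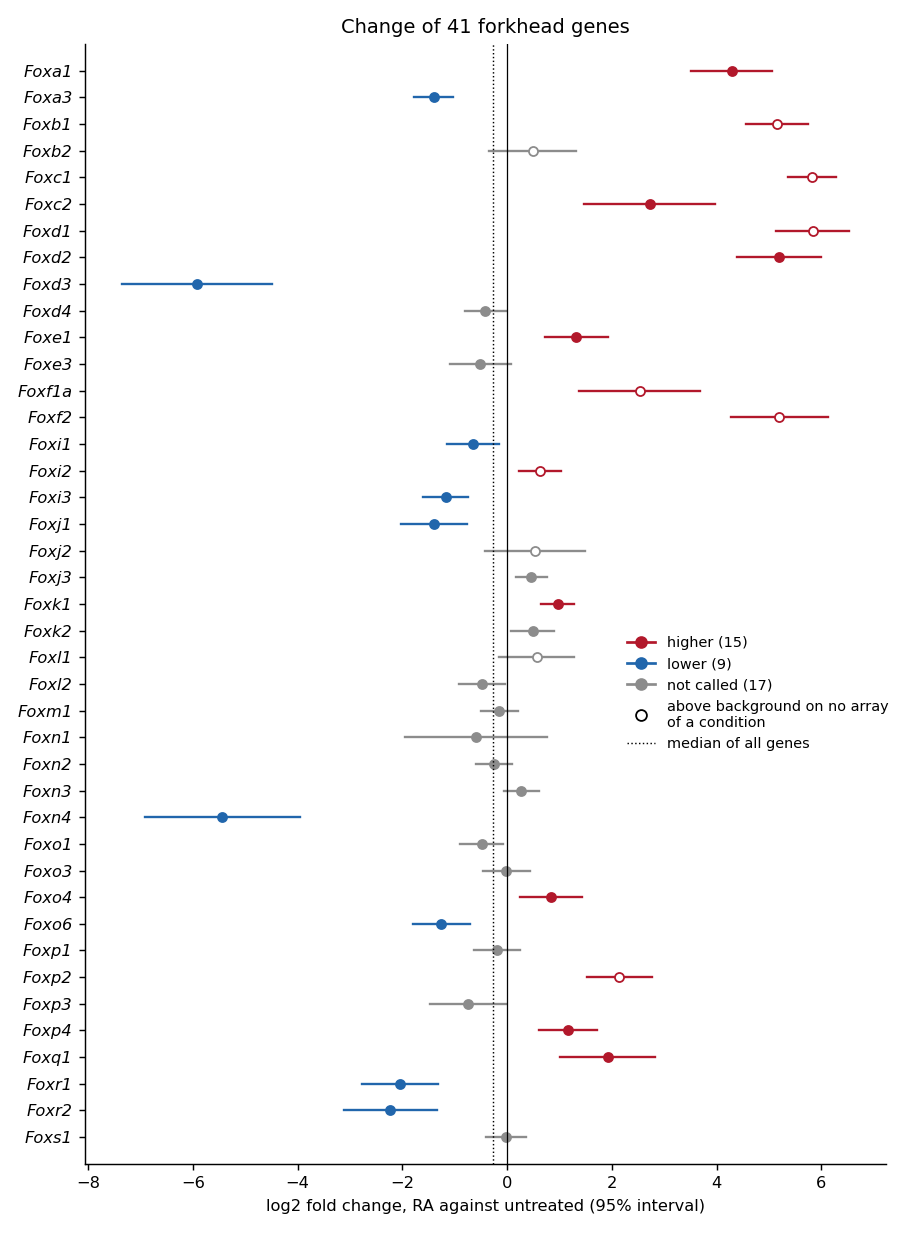
Log2 fold change of RA against untreated cells (x axis) for 41 of the 42 forkhead genes (y axis), with the 95% interval from limma as a bar, 4 arrays per condition. Red marks 15 genes called higher, blue the 9 called lower and grey the 17 not called. Open circles are genes well above background on no array of a condition, whose fitted change is not a bound, and the dotted line is the median of all genes at -0.28.

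Of the 42 genes, 28 were well above background on every untreated array and 32 on every RA array, and 26 were so on all 8. Among these 26 genes, 7 were higher and 7 were lower, and among all 20404 genes detected on all 8 arrays 18.1% were higher and 27.5% lower, so that the share of forkhead genes that were lower was near that of all genes. The number of members well above background was 28 to 31 on the untreated arrays and 35 to 38 on the RA arrays. For 10 members the signal was dim on every untreated array, and 4 of these 10 (Foxb1, Foxc1, Foxd1 and Foxf2) were detected on all 4 RA arrays. Over all genes, 473 of 10645 (4.44%) went the same way. For a gene that was well above background on no array of a condition, the fold is given as a bound. For this, the dim signal on each array was raised to the lowest signal that any probe well above background had there, unless it was already higher, and the mean log2 signal of the bright condition was set against the mean of these log2 values. Such a bound holds for the scaled log2 signals alone, and in the authors' processed values the fold was 10.9 for Foxc1, 6.76 for Foxd1, 4.53 for Foxf2 and 3.76 for Foxb1, below their bounds. With such genes at their bound, and without the 4 genes that have none, the median over 38 members was -0.015.

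Factors of mesenchyme were mostly higher. Of Foxc1, Foxc2, Foxf1a, Foxf2, Foxl1 and Foxs1, 4 were higher, none was lower, and Foxl1 and Foxs1 passed the limits in neither direction, compared with 13.9% of all genes higher and 22.1% lower. Foxc1, a regulator of paraxial mesoderm, eye and vessels, had scaled log2 signals of -6.06, -5.52, -6.17 and -6.13 in untreated replicates 1 to 4 and of -0.31, -0.43, 0.11 and -0.002 in RA replicates 1 to 4. It was dim on all untreated arrays and near the 75th percentile on all RA arrays, and was at least 38.2-fold higher (limma adjusted p = 1.11e-06). Foxf2, a factor of the mesenchyme of gut and palate, had scaled log2 signals of -7.33, -5.75, -7.79 and -7.25 in untreated replicates 1 to 4 and of -1.47, -2.09, -1.68 and -2.11 in RA replicates 1 to 4. All RA arrays lay more than 3 units above the highest untreated array, and the gene was at least 12.4-fold higher (limma adjusted p = 2.49e-05).

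For Foxc2, which acts with Foxc1 in mesoderm and lymphatic vessels, the scaled log2 signal was -4.20, -3.81, -4.64 and -5.06 on untreated arrays 1 to 4 and -2.36, -3.02, -0.62 and -0.80 on RA arrays 1 to 4. The conditions did not overlap, but RA replicates 3 and 4 lay above replicates 1 and 2 by more than 1 unit, and the gene rose by 2.73 (SE 0.55, 6.62-fold, adjusted p = 0.00419). Foxc2 was detected on 3 of the 4 untreated arrays, and its fold was 3.30 with the authors' processed values. Foxf1a (now Foxf1), which specifies the splanchnic mesoderm around the gut, showed -7.24, -7.73, -7.76 and -7.32 on untreated arrays 1 to 4 and -5.29, -6.47, -3.83 and -4.32 on RA arrays 1 to 4. It was detected on 3 RA arrays, with replicates 3 and 4 highest again, and was at least 1.59-fold higher (limma adjusted p = 0.00409). The call was lost with normexp, a model-based background correction (0.37, adjusted p = 0.112), and within slide 2 (2.37, adjusted p = 0.107). Foxl1, of the gut mesenchyme, was well above background on no array. Foxs1, known from pericytes, was detected on all 8 arrays with a difference of -0.02 (SE 0.17, adjusted p = 0.940).

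Several of these genes are neighbours in the genome. On chromosome 13 (mm9), the probes of Foxq1, Foxf2 and Foxc1 follow each other at 70.9 kb and 179.3 kb, and all 3 genes were higher. On chromosome 8 the probes of Foxf1a and Foxc2 are 32.0 kb apart and both genes were higher, while that of Foxl1, 11.7 kb beyond Foxc2, was not above background. On chromosome 4 the probes of Foxd2 and Foxe3 are 18.8 kb apart, and Foxd2 was higher while Foxe3 was not called. Of the 6 markers of fibroblasts, 5 were higher after RA, and Thy1 was not called (-0.08, SE 0.42, adjusted p = 0.882). Their summed linear signal, where 1 is the 75th percentile of an array, was 0.997 to 1.81 on the untreated arrays. On RA replicates 1 to 4 it was 38.0, 36.4, 20.0 and 25.9. This sum was highest on replicates 1 and 2, whereas Foxc1, Foxc2 and Foxf1a were highest on 3 and 4, and Foxf2 on 1 and 3. Without Thy1, the brightest of them in untreated cells, the sum was 0.244 to 0.651 before and 19.6 to 36.3 after RA. Lum and Postn were well above background on no untreated array. The markers of primitive endoderm had a sum of 2.01 to 4.04 in untreated cells and 13.6 to 20.9 after RA, and those of parietal endoderm 117 to 157 and 272 to 332. Sparc alone made at least 73.3% of the untreated parietal sum. Without it the sum was 28.3 to 33.3 before and 71.8 to 93.0 after RA. The part of these cell types in the mesenchymal genes was not tested.

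The FoxD genes went in opposite directions. Foxd1, a factor of the kidney stroma and the retina, had signals of -6.21, -7.57, -6.73 and -6.77 on the untreated and -0.85, -1.52, -0.97 and -0.59 on the RA arrays (replicates 1 to 4). It was not detected without RA and lay on all RA arrays more than 4 units above the highest untreated array, and it was at least 25.3-fold higher (limma adjusted p = 4.26e-06). Foxd2, expressed in facial and kidney mesenchyme, had -3.25, -3.35, -4.52 and -3.96 on untreated arrays 1 to 4 and 1.11, 0.85, 2.04 and 1.71 on RA arrays 1 to 4. The gene was detected on all 8 arrays and rose by 5.20 (SE 0.35, 36.6-fold, adjusted p = 1.28e-05).

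Foxd3, which is known to maintain pluripotent cells and later marks the neural crest, had signals of 0.88, 1.01, 0.23 and 1.15 on the untreated and -4.76, -3.21, -6.16 and -6.29 on the RA arrays (replicates 1 to 4). Among the RA arrays, replicates 3 and 4 were lowest and were not well above background, whereas replicates 1 and 2 were. The gene fell by 5.92 (SE 0.63, 60.7-fold, adjusted p = 0.000121), a value that includes these dim arrays. Its change was -4.16 with normexp and -4.03 with the authors' processed values. ES cell markers had a summed linear signal of 71.0, 120, 47.8 and 45.6 on RA replicates 1 to 4, compared with 449 to 624 on the untreated arrays, so the arrays with the least Foxd3 also had the least of these markers. The neural crest markers had a sum of 0.923 to 1.41 before and 4.22 to 5.64 after RA. Whether either accounts for the spread of Foxd3 was not tested. Foxd4 was detected on all 8 arrays with a difference of -0.42 (SE 0.17, adjusted p = 0.0911).

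**Figure D2:**
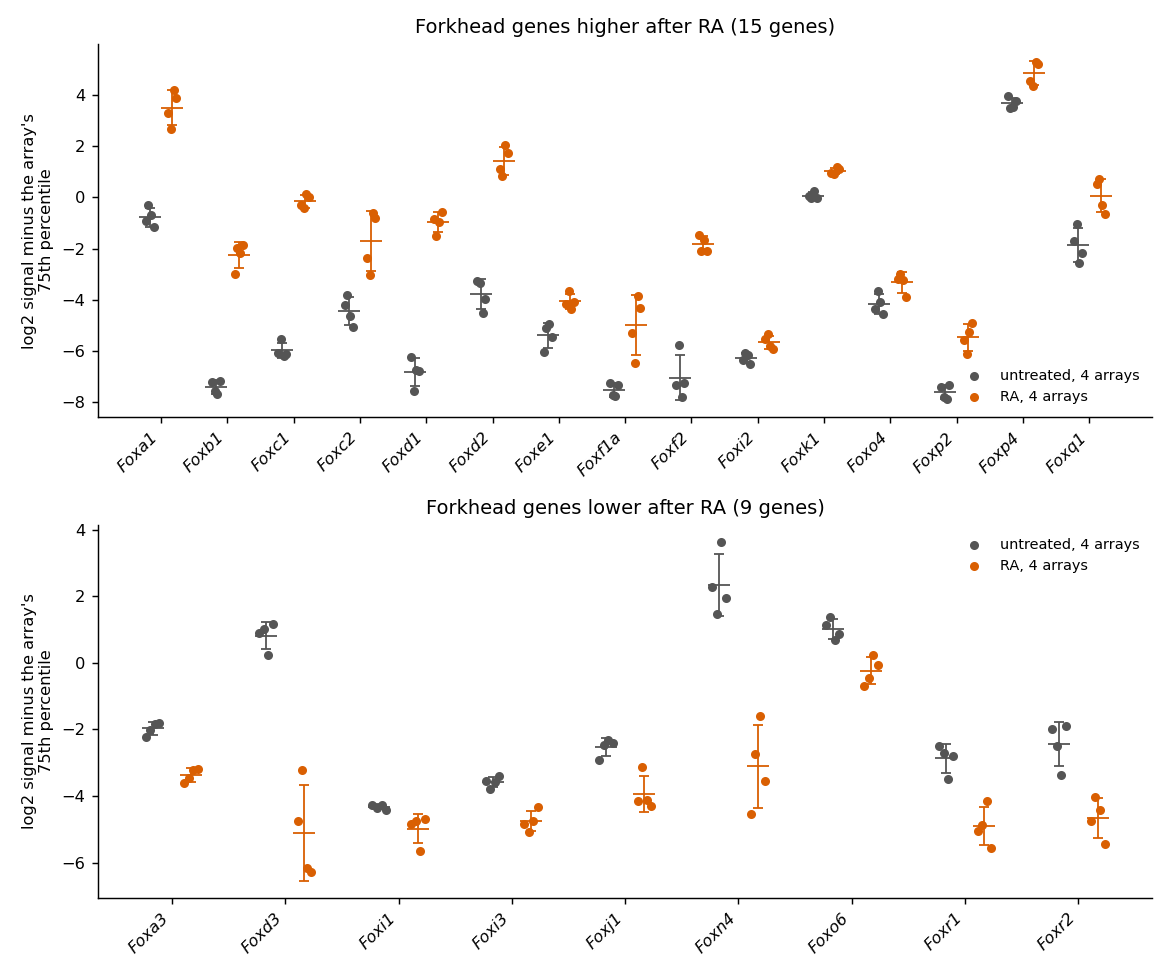
Scaled log2 signal (y axis) on each of the 4 untreated (grey) and 4 RA (orange) arrays for 15 of the 16 forkhead genes that were higher (top) and the 9 that were lower after RA (bottom), with the mean and SD as bars. The arrays of the conditions overlap for Foxo4 alone, and Foxd3 and Foxn4 have the widest spread between RA arrays among the genes that fell.

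The endodermal pioneer factors of the FoxA subfamily also parted. Foxa1, which opens enhancers in foregut, liver and lung, had -0.94, -0.32, -0.71 and -1.18 on untreated arrays 1 to 4 and 3.27, 2.66, 4.18 and 3.89 on RA arrays 1 to 4. It was detected in both conditions without overlap, and rose by 4.28 (SE 0.34, 19.5-fold, adjusted p = 2.59e-05). Foxa3, a factor of liver and gut, had signals of -2.23, -2.0, -1.82 and -1.81 on the untreated and -3.62, -3.44, -3.23 and -3.18 on the RA arrays (replicates 1 to 4). It fell by 1.40 (SE 0.17, 2.64-fold, adjusted p = 0.000211). The change of Foxa1 exceeded that of Foxa3 by 5.68 (95% interval 4.82 to 6.55), with an exact two-sided permutation p of 0.0286 over the arrays, which is the smallest that 4 against 4 arrays can give. With the arrays paired by replicate number the smallest possible p is 0.125, so that neither this difference nor those of the other pairs below could pass. Of the 6 visceral endoderm markers, Afp, detected on 1 untreated and 4 RA arrays, rose by 6.18 with the dim arrays included (SE 0.77, adjusted p = 0.000292), Ttr was at least 43.1-fold higher (adjusted p = 8.39e-06), Rhox5 fell by 0.75 (SE 0.16, adjusted p = 0.00525) and the others were not called. Their summed signal of 56.7 to 72.6 before and 35.9 to 49.5 after RA was mostly that of Rhox5, and without it the sum was 0.265 to 0.499 before and 1.61 to 7.35 after RA. Their part in the FoxA genes was not tested.

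Factors of the nervous system gave a mixed picture, with Foxb1 higher, Foxn4 lower and Foxb2 well above background on no array. Foxb1, of the hypothalamus and the neural tube, had -7.22, -7.56, -7.67 and -7.15 on untreated arrays 1 to 4 and -2.99, -1.99, -2.18 and -1.85 on RA arrays 1 to 4. It was dim on all untreated arrays and detected on all RA arrays, and was at least 10.5-fold higher (limma adjusted p = 3.91e-06).

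Foxn4, which directs retinal and spinal interneurons, had 2.28, 1.48, 3.64 and 1.94 on untreated arrays 1 to 4 and -4.53, -2.73, -1.61 and -3.55 on RA arrays 1 to 4. Its arrays were far apart from each other in both conditions, but the lowest untreated array lay more than 3 units above the highest RA array. The gene fell by 5.44 (SE 0.65, 43.4-fold, adjusted p = 0.000235). Within slide 1 its change was -7.00, and within slide 2 it was -3.88. Of the 7 neural markers, Nes rose by 2.10 (SE 0.16, adjusted p = 2.00e-05), Dcx was at least 6.68-fold higher (adjusted p = 8.35e-06), Tubb3 fell by 2.22 (SE 0.31, adjusted p = 0.000521) and 4 were not called. Their summed signal was 6.11 to 9.68 before and 10.5 to 11.9 after RA, or 2.26 to 3.68 and 8.98 to 10.6 without Tubb3, and its relation to the neural forkhead genes was not tested.

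Genes of ectodermal and endodermal organs went both ways. Foxq1, known from hair and gastric mucus cells, had signals of -1.72, -1.02, -2.54 and -2.16 on the untreated and 0.50, 0.70, -0.30 and -0.66 on the RA arrays (replicates 1 to 4). It was detected everywhere, and rose by 1.92 (SE 0.40, 3.79-fold, adjusted p = 0.00478). Foxe1, of the thyroid and palate, had -6.05, -5.10, -4.93 and -5.47 on untreated arrays 1 to 4 and -4.17, -3.65, -4.35 and -4.07 on RA arrays 1 to 4. With 2 untreated and 4 RA arrays above background, it rose by 1.32 (SE 0.27, 2.5-fold, adjusted p = 0.00424). A second Foxe1 probe, further downstream, was well above background on no array.

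Of the FoxI genes, Foxi3 and Foxi1 fell and Foxi2 was called higher. Foxi3, a factor of ectodermal placodes, was detected on all arrays with -3.54, -3.79, -3.59 and -3.39 on untreated arrays 1 to 4 and -4.84, -5.08, -4.76 and -4.33 on RA arrays 1 to 4. It fell by 1.17 (SE 0.19, 2.26-fold, adjusted p = 0.00113). Foxi1, of the inner ear and kidney, had -4.26, -4.35, -4.27 and -4.42 on untreated arrays 1 to 4 and -4.84, -4.76, -5.63 and -4.68 on RA arrays 1 to 4, and RA replicate 3 was lowest. The call was at the limit, with -0.65 (SE 0.22, adjusted p = 0.0435), and was lost after quantile normalization (-0.35, adjusted p = 0.235), with the replicate number as a block (adjusted p = 0.0722) and without RA replicate 3 (-0.44, adjusted p = 0.0567). It was also lost without untreated replicate 1, 2, 3 or 4 or RA replicate 1 or 2 (adjusted p 0.05105 to 0.0904). Foxi2 had -6.35, -6.09, -6.16 and -6.52 on untreated arrays 1 to 4 and -5.54, -5.35, -5.79 and -5.92 on RA arrays 1 to 4. It was well above background on 2 RA arrays, its bound was under 1 and no fold is given, although the limma call was made (adjusted p = 0.0215) and was lost without untreated replicate 1 or 4 or RA replicate 1 or 2 (adjusted p 0.05005 to 0.0626).

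Foxe3, Foxl2 and Foxn1, of lens, ovary and thymus, were not called. Foxe3 was detected on 2 untreated arrays and 1 RA array, and Foxn1 on 1 of each. The brightest Foxl2 probe, the GC-rich sequence A_55_P2037732 printed above, had signals of 4.55, 4.91, 4.48 and 5.02 on the untreated and 3.92, 4.51, 4.23 and 4.37 on the RA arrays (replicates 1 to 4), a difference of -0.48 (SE 0.19, adjusted p = 0.0792). Its neighbour A_55_P2041668 was far dimmer, with means of -4.31 on the untreated and -4.58 on the RA arrays. Those of the brightest probe were 4.74 and 4.26, so the level of Foxl2 depends on the probe, and why was not tested. The dimmer probe gave a difference of -0.27 (SE 0.27, adjusted p = 0.418), so that neither probe passed the limits.

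Foxj1, the master regulator of motile cilia, fell, as did many of its targets. It had -2.92, -2.47, -2.31 and -2.40 on untreated arrays 1 to 4 and -4.14, -3.13, -4.13 and -4.30 on RA arrays 1 to 4, and RA replicate 2, the RA array with the most ES cell marker signal, was highest, a relation that was not tested. The gene fell by 1.40 (SE 0.28, 2.64-fold, adjusted p = 0.00365). Of 22 genes listed as Foxj1 targets of motile cilia, 14 fell, 3 rose and 5 were not called, compared with 22.1% of all genes lower and 13.9% higher. The median change was -0.98, compared with -0.28 over all genes. With dim genes at their bound and without the 4 genes that have none, it was -1.30 over 18 genes. That measure was not computed over all genes. With the authors' processed values 9 of the 22 genes fell. Among the genes detected in both conditions, the largest decreases (log2) were in Tekt1, a tektin of the axoneme (-4.20, SE 0.26, adjusted p = 8.94e-06), and Rfx2, a factor of ciliary genes (-3.29, SE 0.16, adjusted p = 3.40e-06). Rsph4a, of the radial spoke, was dim on all RA arrays and at least 8.65-fold lower (adjusted p = 1.40e-05). Among the genes that rose were Rfx3 (1.75) and Rsph9 (0.77). Of the list, 4 genes were dim on all untreated arrays and 6 on all RA arrays.

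The FoxR genes, which are expressed in germ cells and early embryos, both fell. Foxr1 had signals of -2.50, -2.70, -3.48 and -2.79 on the untreated and -5.06, -4.87, -4.16 and -5.54 on the RA arrays (replicates 1 to 4). It fell by 2.04 (SE 0.32, 4.12-fold, adjusted p = 0.00103). Foxr2 had -1.99, -2.49, -3.36 and -1.89 on untreated arrays 1 to 4 and -4.75, -4.02, -4.43 and -5.43 on RA arrays 1 to 4. It fell by 2.23 (SE 0.39, 4.69-fold, adjusted p = 0.00193). The changes of both genes differed by 0.19 (95% interval -0.53 to 0.90, exact permutation p = 0.543). The germ cell markers Ddx4, Dazl and Stra8 had a summed signal of 3.51 to 4.94 in untreated cells and 10.8 to 40.6 after RA, or 1.15 to 3.09 and 3.94 to 4.76 without Stra8. Ddx4 and Stra8 were higher, and Dazl differed by -0.92 (SE 0.52, adjusted p = 0.198).

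Within the FoxO subfamily, whose members are held in the cytoplasm by Akt and switch on genes of stress resistance and catabolism when insulin signalling is low, the members differed. Foxo6, the brain-enriched member that stays largely nuclear, had signals of 1.13, 1.37, 0.69 and 0.86 on the untreated and -0.68, -0.45, 0.23 and -0.06 on the RA arrays (replicates 1 to 4). Its brightest probe fell by 1.25 (SE 0.24, 2.38-fold, adjusted p = 0.00316), and a second probe fell by 1.09 (SE 0.27, adjusted p = 0.0117). Foxo4 had -4.37, -3.64, -4.07 and -4.57 on untreated arrays 1 to 4 and -3.18, -2.99, -3.24 and -3.89 on RA arrays 1 to 4. The highest untreated array overlapped the RA arrays, and the gene rose by 0.84 (SE 0.26, 1.79-fold, adjusted p = 0.0331). The call was lost without untreated replicate 1, 3 or 4 or RA replicate 1, 2 or 3 (adjusted p 0.0514 to 0.0841).

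Foxo1 and Foxo3, the widely expressed FoxO factors, were not called. Foxo1 had 3.01, 2.94, 2.51 and 2.60 on untreated arrays 1 to 4 and 2.45, 2.46, 2.21 and 2.01 on RA arrays 1 to 4, and its difference of -0.49 (SE 0.18, adjusted p = 0.0620) missed the limits although the conditions did not overlap. Foxo3 differed by -0.01 (SE 0.20, adjusted p = 0.961) on its brightest probe, whereas a second, dimmer probe matched to another transcript fell by 0.93 (SE 0.26, adjusted p = 0.0212). The change of Foxo1 minus that of Foxo4 was -1.32 (95% interval -1.88 to -0.76, exact permutation p = 0.0286), or -0.77 with normexp, and its difference from that of Foxo3 was -0.47 (95% interval -1.27 to 0.33, p = 0.143 in the same exact test).

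Of 31 genes listed as FoxO regulators and targets, 9 rose, 7 fell and 15 were not called, compared with 13.9% of all genes higher and 22.1% lower. The share of the list that fell was near that of all genes, and the median change was 0.18, compared with -0.28 over all genes. The largest increases (log2) were in Akt1, the kinase that inhibits FoxO factors (2.38, SE 0.14, adjusted p = 7.18e-06), Irs2, an insulin receptor substrate (2.35, SE 0.19, adjusted p = 2.69e-05), and Ccng2, a cyclin that restrains proliferation (2.10, SE 0.14, adjusted p = 1.09e-05). The largest decreases were in Txnip, an inhibitor of thioredoxin (-5.69, SE 0.41, adjusted p = 1.56e-05), Klf2, a factor also known from naive ES cells (-5.58, SE 0.44, adjusted p = 2.59e-05), and Trim63, a ubiquitin ligase of muscle (-3.46, SE 0.21, adjusted p = 7.98e-06). Regulators and targets were found in both directions.

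**Figure D3:**
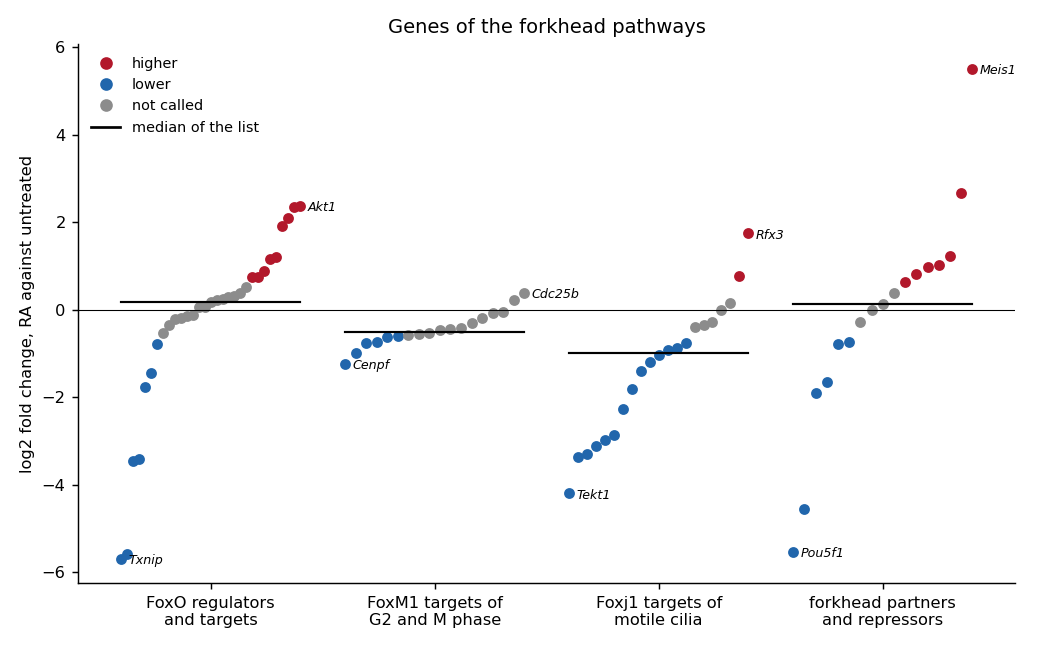
Log2 fold change of RA against untreated cells (y axis) of genes of the 4 pathway lists (x axis, sorted within a list), with 31, 18, 21 and 17 genes drawn and 1 gene of the cilia list left out. Red genes were called higher, blue genes lower and grey genes neither, and the black line is the median of the whole list. In the cilia list 14 of the 21 genes drawn are blue, and in the FoxM1 list none is red.

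In the FoxP subfamily, repressors that work as dimers in lung, brain and lymphocytes, Foxp2 and Foxp4 were higher. Foxp4 had signals of 3.94, 3.50, 3.53 and 3.75 on the untreated and 4.54, 4.33, 5.28 and 5.21 on the RA arrays (replicates 1 to 4). It was well above background on all arrays and rose by 1.16 (SE 0.25, 2.23-fold, adjusted p = 0.00543). Its other probes rose by 1.16 and 1.88 (adjusted p = 0.00676 and 0.000487). The first of these mostly overlaps the brightest probe (mm9, chr17:48004713-48004772 and chr17:48004719-48004778), so it is close to a repeat of the same measurement. Foxp2, of the cortex and lung, had -7.41, -7.79, -7.87 and -7.33 on untreated arrays 1 to 4 and -5.56, -6.13, -5.26 and -4.89 on RA arrays 1 to 4. It was detected on 3 RA arrays and no untreated array, and was at least 1.14-fold higher (limma adjusted p = 0.000318). Another Foxp2 probe, detected on 1 RA array, differed in the same direction, and the other was detected on untreated replicate 1 alone. Foxp3, of regulatory T cells, had -2.49, -3.39, -3.74 and -3.62 on untreated arrays 1 to 4 and -3.73, -4.0, -4.69 and -3.83 on RA arrays 1 to 4 and was not called, at -0.75 (SE 0.32, adjusted p = 0.0953), whereas with the replicate number as a block it was called lower (adjusted p = 0.0401).

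Foxp1, which is known to have an ES cell isoform, had 5 probes. The brightest, which ends in the stop codon printed above, had signals of 4.87, 4.25, 4.27 and 4.52 on the untreated and 4.29, 3.97, 4.42 and 4.49 on the RA arrays (replicates 1 to 4). It differed by -0.19 (SE 0.19, adjusted p = 0.446), with overlapping conditions. The probe A_55_P2105452, the sequence printed beside it, was well above background on 1 untreated array and on all 4 RA arrays, with signals of -5.42, -5.17, -6.49 and -6.09 on the untreated and -3.47, -4.12, -2.92 and -3.02 on the RA arrays (replicates 1 to 4). This probe rose by 2.41 (SE 0.36, adjusted p = 0.000788) without overlap. Of the other Foxp1 probes, 2 were detected on all arrays with differences of -0.03 and -0.18, and 1 was not above background. The change of Foxp1, by its brightest probe, was lower, with a difference from that of Foxp4 of -1.34 (95% interval -1.72 to -0.97, exact permutation p = 0.0286).

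**Figure D4:**
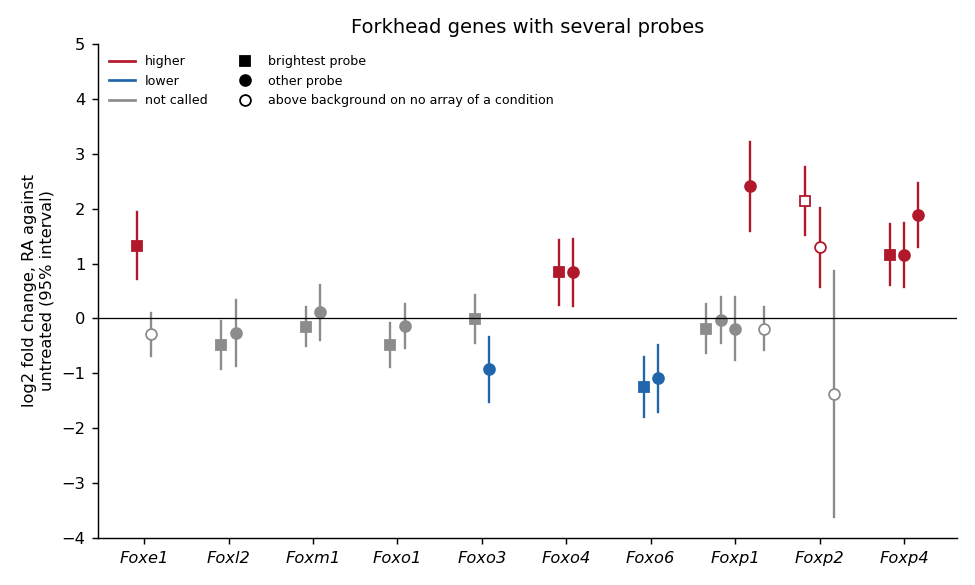
Log2 fold change of RA against untreated cells (y axis) for each probe of the 10 forkhead genes with several probes (x axis), with 95% intervals from limma. Squares are the brightest probe of a gene, circles the others, and open symbols probes well above background on no array of a condition. A single Foxp1 probe rose while its brightest probe did not, and the Foxo3 probes gave different calls.

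Forkhead factors of most cell types, namely Foxj2, Foxj3, Foxk1, Foxk2, Foxm1, Foxn2 and Foxn3, included 1 called gene among 7, compared with 13.9% of all genes called higher and 22.1% called lower. Foxk1, a repressor of autophagy genes, had 0.05, -0.04, 0.24 and -0.02 on untreated arrays 1 to 4 and 0.94, 0.90, 1.16 and 1.10 on RA arrays 1 to 4. It rose by 0.97 (SE 0.14, 1.95-fold, adjusted p = 0.000637), without overlap. Its paralogue Foxk2 had a difference of 0.49 (SE 0.18, adjusted p = 0.0629), and the changes of the FoxK genes differed by 0.48 (95% interval -0.12 to 1.07, exact permutation p = 0.114).

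Foxj3 was above all untreated arrays on all RA arrays, but its difference of 0.46 (SE 0.13, adjusted p = 0.0210) was under 1.5-fold. After quantile normalization it was 0.62 and the gene was called (adjusted p = 0.000762). Foxj2 was detected on 1 RA array. Foxn2 and Foxn3 differed by -0.25 (SE 0.15, adjusted p = 0.212) and 0.27 (SE 0.15, adjusted p = 0.177), and the change of Foxn2 was lower, with a difference from that of Foxn3 of -0.52 (95% interval -0.88 to -0.16, exact permutation p = 0.0286).

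Foxm1, which drives genes of mitosis, was detected on all 8 arrays with signals of 1.99, 1.71, 1.73 and 2.17 on the untreated and 1.77, 1.91, 1.62 and 1.71 on the RA arrays (replicates 1 to 4). The conditions overlapped, with a difference of -0.15 (SE 0.16, adjusted p = 0.451), and a second probe gave 0.11 (SE 0.22, adjusted p = 0.692). Among 18 genes listed as FoxM1 targets of the G2 and M phases, 6 fell, 12 were not called and 0 rose by limma, and 0 were higher at an unadjusted p under 0.05, where 12 were lower. Over all genes 22.1% were called lower and 13.9% higher, at the adjusted p and the 1.5-fold limit. The unadjusted count sets no fold limit, and no share of all genes was computed for it. The median was -0.50, compared with -0.28 over all genes. The largest decreases (log2) were in the kinetochore gene Cenpf (-1.23, SE 0.18, adjusted p = 0.000756), the kinase Aurka (-0.99, SE 0.24, adjusted p = 0.0111) and Cdc20, an activator of the anaphase-promoting complex (-0.76, SE 0.16, adjusted p = 0.00450). With quantile normalization 3 of the 18 genes fell, near the 16.3% of all genes that did. Without a given array 4 to 9 fell, 4 without untreated replicate 4 or RA replicate 1 or RA replicate 3 or RA replicate 4 and 9 without untreated replicate 3 or RA replicate 2.

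In all, 8 pairs of related forkhead genes, both members of which were detected in untreated as well as in RA-treated cells, were compared, and the changes differed in 5 of them at an exact permutation p of 0.0286, or 0.0457 adjusted over the 8 pairs. The remaining such pair was Foxe1 and Foxe3, whose changes differed by 1.84 (95% interval 0.54 to 3.13). Foxe1 was detected on 2 untreated arrays and Foxe3 on 2 untreated arrays and 1 RA array, and the difference was 0.60 both with normexp and with the authors' processed values. With arrays paired by replicate number, 4 pairs of arrays cannot give an exact p below 0.125, and none of the 8 comparisons could pass.

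Of 17 genes that bind, modify or cooperate with forkhead factors, 7 rose, 6 fell and 4 were not called, with a median of 0.14, compared with 13.9% of all genes higher, 22.1% lower and a median of -0.28. Meis1, a homeobox cofactor (log2 change 5.51, SE 0.25, adjusted p = 2.42e-06), and the Smad proteins of TGF-beta signalling Smad3 (2.67, SE 0.15, adjusted p = 6.22e-06) and Smad2 (1.24, SE 0.19, adjusted p = 0.000855) rose most. The largest decreases were in Pou5f1 (-5.54, SE 0.61, adjusted p = 0.000152) and Nanog (-4.55, SE 0.51, adjusted p = 0.000167), pluripotency factors, and in the corepressor Ctbp2 (-1.91, SE 0.15, adjusted p = 2.46e-05).

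Cbx8 is a chromobox subunit of polycomb repressive complex 1. Which genes have a Cbx8 peak in RA-treated cells was taken from the study's own annotated ChIP-seq peak list, and the peaks themselves were not analysed here. That list names 8 of the forkhead genes. Of these, Foxb1, Foxc1, Foxc2 and Foxd1 were higher, Foxi3 was lower, and Foxb2, Foxd4 and Foxl2 were not called. Of the 34 forkhead genes that it does not name, 12 were higher, 8 were lower and 14 were not called. Over all genes 13.9% were higher and 22.1% lower, and the share of these 34 that were lower was near the latter. With dim genes at their bound and without those that have none, the median change was 2.73 over 7 genes of the list. It was -0.02 over 31 of the others. Of the 8 listed genes, 4 were well above background on no untreated array, compared with 10 of all 42 forkhead genes and 10645 of all 36406 genes. The set is small, and its difference from the other members was not tested.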

How the data were processed

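RNA of 4 untreated and 4 RA-treated replicates had been labelled with Cy3 and hybridized to 1-colour arrays. Per array, the authors deposited the spot table of Agilent Feature Extraction (version 10.7.3.1), with a background-corrected intensity, the raw and local background intensity, and flags of 0 or 1 (other values) for saturated spots, outliers and signals well above background, at mm9 positions. The log2 values of a further table, which the authors deposited without stating their scale, correlated at 1 with the scanner values after normexp and quantile normalization and served as an alternative. Groups and replicate numbers came from the labels, the RA dose of 1 µM from the methods.

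In R (version 4.3.3), the 75th percentile over 59305 spots was subtracted from the log2 intensities of an array, without control and outlier spots, and spots of a probe were averaged. The test was limma's (version 3.58.1; lmFit, eBayes), with Benjamini-Hochberg adjustment over 55681 probes, and the authors' limits of 1.5-fold and an adjusted p under 0.05. SE are those of limma, and intervals are at 95%. A probe counted as well above background on an array if at least 50% of its spots were. The changes of 2 related genes were compared by exact two-sided permutation of the difference of their signals over the arrays, adjusted over 8 pairs. The number of arrays limits the precision. The scripts were tested on simulated data, in which 124 of 200 probes changed by 2 (log2) were recovered and 8 unchanged probes were called. A gene that was not called may therefore still have changed.

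The members, pairs, pathway lists, cell type markers and role groups were chosen with earlier results of these data known. Values are given for called genes, and in the pathway lists for the 3 largest changes in each direction. Gene names were kept as printed on the array, and 41 of the 42 are current symbols. Old names in the lists were matched through RefSeq synonyms.

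Replicates are numbered 1 to 4 in both conditions. Same-numbered arrays deviated together from their condition means (correlations of 0.104 to 0.189, against at most 0.142 between different numbers), so from the labels and this check the numbers were taken as pairs. Each of the 2 slides held 2 arrays per condition. Same-numbered arrays shared a slide for replicates 1 and 2, but not for replicates 3 and 4 (0.104 and 0.151). Untreated 1 with RA 4 (0.142) and untreated 4 with RA 3 (0.130) also shared a slide and exceeded the value of replicate 3. The part of the slide in these correlations was not tested. Alternatives were quantile normalization, normexp with an offset of 50, both together, the authors' table, a filter on dim probes, the replicate or slide as a block, each slide alone, a test against 1.5-fold (treat), outlier spots kept, the mean of a gene's probes and leaving out each array. ChIP-seq libraries were not analysed here. The values of 1 forkhead gene and of 1 gene of the cilia list are not reported here, and both stay in the counts and medians.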

Additional observations from a re-analysis of the deposited data

Results flagged for a closer look

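Among the 84 groups of 4 arrays (42 forkhead genes in 2 conditions), 3 held an array that stood apart from the others by Dixon's test at its 95% critical value, which by chance marks about 1 group in 20. Foxi1 on RA replicate 3 was at -5.63, and the other RA arrays were between -4.84 and -4.68. Foxj1 on RA replicate 2 was at -3.13, and the others were between -4.30 and -4.13. Foxn3 on RA replicate 1 was at 1.58, and the other 3 were all at 1.52.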

How the results depend on the processing

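Of the 25 called forkhead genes, 18 were called in the same direction in each alternative computed for single genes (treat and the mean of probes were not) other than within a single slide, among them Foxa1, Foxa3, Foxb1, Foxc1, Foxc2, Foxd1, Foxd2, Foxd3, Foxf2, Foxj1, Foxk1, Foxn4, Foxo6, Foxp4, Foxq1, Foxr1 and Foxr2. Normexp with an offset of 50 compresses dim signals, and under it the calls of Foxe1, Foxf1a, Foxi1, Foxo4 and Foxp2 were lost and Foxi2 turned to -0.0307 (adjusted p = 0.821). The number of genes higher was 14 to 16 and the number lower 8 to 9 when arrays were left out in turn, and 14 and 9 with dim genes counted by their bound, which was chosen after seeing the data. It was 10 higher by treat against 1.5-fold, 10 within slide 1 and 7 within slide 2, where 2 arrays face 2. With the replicate block it was 16 higher and 9 lower, and the block changed the calls of Foxi1 and Foxp3 (adjusted p = 0.0401, lower) and no other call of a member. The median change of the forkhead genes was -0.0631 with normexp, 0.151 with normexp and quantile normalization, 0.144 in the authors' table and -0.015 with the filter on dim probes, where that of all genes was -0.212, -0.0112, -0.0125 and -0.234, respectively, and 0.24 to 0.35 when arrays were left out.

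Among the pathway lists, FoxO genes higher numbered 5 within slide 1, 4 within slide 2 and 5 by treat. FoxM1 targets lower were 3 with quantile normalization, with normexp and quantile normalization and in the authors' table, 1 within slide 1, 0 within slide 2 and 1 by treat. Cilia genes lower were 9 with normexp and quantile normalization and in the authors' table, 7 within slide 2 and 8 by treat. Partners higher were 2 within slide 1, 3 within slide 2 and 4 by treat. Genes with a Cbx8 peak lower were 0 with normexp and quantile normalization, in the authors' table and within slide 1. When arrays were left out, the lists had 9 to 10 and 7 to 8 FoxO genes, 0 and 4 to 9 FoxM1 targets, 2 to 3 and 12 to 14 cilia genes, 6 to 7 and 6 partners and 4 and 1 genes with a Cbx8 peak higher and lower. The cause was not tested.

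For the pairs, the replicate block permits a smallest exact p of 0.125 with 4 pairs of arrays, so the differences of 5.68 (Foxa1 and Foxa3), 1.84 (Foxe1 and Foxe3), -0.52 (Foxn2 and Foxn3), -1.32 (Foxo1 and Foxo4) and -1.34 (Foxp1 and Foxp4) could not pass with paired arrays. With normexp the difference of Foxn2 and Foxn3 was -0.48 (exact permutation p = 0.0571). Probes near background limit what the arrays can show of a gene in the condition where it is dim.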
